A study of Pleurotus tuoliensis with 2 samples.

Results

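Fatty acid metabolism was read from the unigenes of *Pleurotus tuoliensis* mycelia whose Swissprot protein name contained desaturase, fatty acid, acyl-CoA, acetyl-CoA carboxylase, enoyl or lipoxygenase. Names with P450, sterol or hydroxymethylglutaryl were left out, and a mean FPKM above 1 over the 6 libraries was required. FPKM counts fragments relative to the length of the unigene and to all mapped fragments of the library, so levels can be compared between unigenes. In total, 78 of 17030 unigenes were members, all 78 name matches passed the filter on low values, and 16496 unigenes of any name passed it and were tested. A Swissprot name was listed for 7114 unigenes.

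All mycelia belonged to strain ACCC 50869 and grew in the dark at 25 °C for 37 days in bottles holding 820 g of substrate. Immature mycelia were taken from 3 bottles at that point, day 0 of the following 17 °C phase. Mature mycelia were taken from 3 other bottles on day 35 at 17 °C, also in the dark. Maturity, temperature and age of the culture changed together and cannot be told apart. As 1 library was made per bottle, replicate error here is that between separate cultures of 1 strain. The table gives FPKM and no read counts, so the number of fragments behind each value is not given. FPKM summed to between 1206304 and 1238506 per library. Over the unigenes tested, Pearson's r of log2(FPKM + 1) was 0.872 to 0.892 between immature bottles and 0.895 to 0.918 between mature bottles. Between bottles of different stages it was 0.865 to 0.891, so immature bottles were hardly more alike than bottles across stages.

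Fungi build fatty acids from acetyl-CoA. Acetyl-CoA carboxylase makes malonyl-CoA. The fatty acid synthase, with alpha and beta subunits in yeasts, joins malonyl units into a saturated chain that can be elongated and desaturated. Desaturases add double bonds in sequence: an acyl-CoA desaturase makes oleic acid, a Delta(12) desaturase turns it into linoleic acid, and an omega-3 desaturase goes on to linolenic acid, and such double bonds keep membranes fluid in the cold. In the other direction, a chain is first bound to CoA and then shortened by beta-oxidation, in which a dehydrogenase or oxidase, a hydratase, a second dehydrogenase and a thiolase act in turn. Chains with double bonds need isomerases and a dienoyl-CoA reductase as well.

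The role of a member rests on its protein name, and the best Swissprot match came from 29 species, many of them far from *Pleurotus*. In the Nr database the 78 members matched 63 proteins, and 69 members matched a protein of *P. ostreatus*, the oyster mushroom. Of these proteins, 11 were matched by more than 1 member, 26 members in all, and 26 further unigenes outside the list matched a member's protein. Members on 1 protein may be pieces or near copies of 1 gene between which reads were divided, and they are not independent. Member unigenes had a median length of 1302 bases (202 to 9074), against 887 for all unigenes tested, and 10 of them were shorter than 500 bases. Their median level was 40.4 FPKM (2.16 to 419), against 28.1 for all unigenes tested. Between bottles of a group they varied with a median residual SD of 0.201 on the log2(FPKM + 1) scale, against 0.251 for all.

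Most fatty acid unigenes had small ratios between the stages. The log2 ratio, mature minus immature, lay within 0.5 of 0 for 61 of 78 members (78.2%), against 75.8% of all unigenes tested, and its median was -0.02, against -0.07. It was below 0 for 41 members (52.6%), against 57.7% of all. The study's thresholds were an unadjusted p no higher than 0.05 and a log2 ratio of 1 or more in size. By these, 1 member was higher in mature mycelia, an omega-3 desaturase, where 1.18% of all unigenes tested were. On the lower side 1 member passed, an acyl-CoA desaturase, where 1.82% of all did. At an adjusted p under 0.05, over all unigenes tested with limma, 0 members passed in either direction, and the shares of all unigenes were 0.0485% higher and 0.0182% lower. An unadjusted p of at most 0.05 was reached by 8 higher members (10.3%, against 6.09% of all) and by 11 lower members (14.1%, against 9.33%). Every mature bottle lay above every immature bottle for 7 members (8.97%, against 8.69%) and below for 15 members (19.2%, against 14.2%). Whether these shares differ from those of all unigenes was not tested. For a single unigene, the smallest p that exact permutation (two-sided) can reach in this design is 0.1.

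Many short unigenes have noisy values, so the fit was repeated on the 11839 unigenes of at least 500 bases. There 3 members reached an adjusted p under 0.05, all lower in mature mycelia: the acyl-CoA desaturase DN6768_c0_g1, the enoyl-CoA delta isomerase DN5637_c0_g1 and the 2,4-dienoyl-CoA reductase DN9346_c0_g1. In that fit 0.49% of all unigenes were lower at this threshold and 0.853% passed it in either direction. These calls rest on the set of bottles: leaving out each bottle in turn, the 3 passed only without mature bottle 1, and 0 members passed in the other 5 fits. The same held widely: of all unigenes of this length, 101 passed with every bottle, 287 without mature bottle 1, and 3 to 16 in the other 5 fits.

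**Figure D1:**
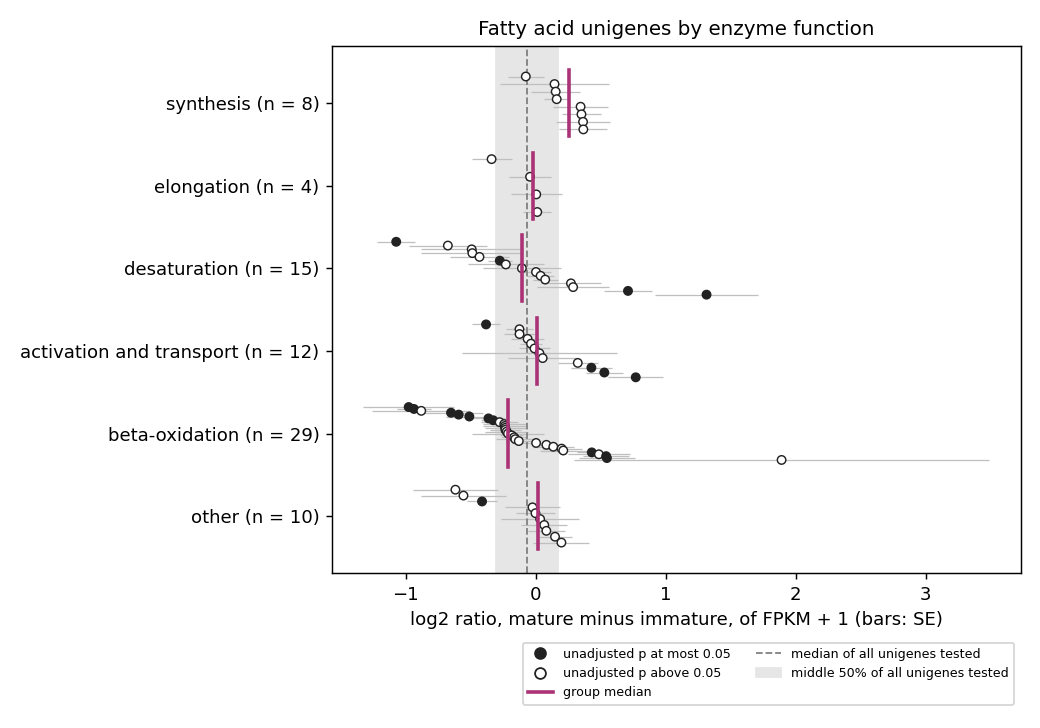
Each point is 1 of the 78 fatty acid unigenes, with its log2 ratio of FPKM + 1, mature minus immature, on the horizontal axis, its standard error as a bar, a filled point for an unadjusted p of at most 0.05, and the groups by enzyme function from top to bottom. The median of the 8 synthesis unigenes was 0.25 and that of the 29 beta-oxidation unigenes was -0.21, and the grey band holds the middle 50% of all unigenes tested.

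The words set for sorting members into roles put 9 in synthesis, 1 in elongation, 15 in desaturation, 12 in activation and transport, 26 in beta-oxidation and 15 in the rest, with median log2 ratios of 0.16, -0.04, -0.11, 0.01, -0.18 and -0.03. After values were seen, 8 members were moved by what the named enzyme does, among them enoyl-CoA delta isomerases and racemases into beta-oxidation. The groups then held 8, 4, 15, 12, 29 and 10 members, with medians of 0.25, -0.02, -0.11, 0.01, -0.21 and 0.02. The roles below follow the second sorting. Members are named by a rule on p, level and protein name, and those outside the naming rule are marked because they were picked once their values were known.

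Synthesis unigenes mostly read higher in mature bottles 2 and 3 and not in mature bottle 1. Of 8 members, 7 had a log2 ratio above 0, none (0 of 8) reached an unadjusted p of 0.05, and their log2 ratios ran from -0.08 to 0.37. These 8 unigenes stand for only 3 Nr proteins.

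Acetyl-CoA carboxylase, which commits acetyl-CoA to fatty acid synthesis, was represented by 4 unigenes of 1 *P. ostreatus* protein. The FPKM of DN7101_c0_g1 was 42.4, 36.3 and 43.7 in immature bottles 1, 2 and 3, and 43.6, 55.8 and 58.3 in mature bottles 1, 2 and 3 (log2 ratio 0.35, SE 0.147, unadjusted p = 0.0537, adjusted p = 0.331). DN4596_c0_g1 read 19.7, 22.3 and 21.0 FPKM in immature and 20.7, 31.4 and 31.2 in mature bottles (log2 ratio 0.37, SE 0.185, adjusted p = 0.393). In both, mature bottles 2 and 3 stood above every immature bottle, and mature bottle 1 lay among the immature values. Mature bottles 2 and 3 were also the highest for DN7327_c0_g1, at 20.9, 22.7 and 26.1 against 22.2, 33.3 and 36.6 FPKM (log2 ratio 0.36, SE 0.209). DN7327_c0_g2 read 34.1, 31.1 and 40.9 against 33.9, 46.8 and 56.9 FPKM (log2 ratio 0.34, SE 0.213). In all 4 unigenes mature bottles 2 and 3 thus held the highest values.

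The fatty acid synthase appeared as 3 unigenes of 1 Nr protein, 12007 bases in total. Alpha and beta here are names of Swissprot matches to yeast proteins, and the 3 unigenes may be pieces of 1 gene. DN3859_c0_g1, matched to the alpha subunit, was the most abundant synthesis unigene, with 134, 149 and 146 FPKM in immature and 112, 150.1 and 146 in mature bottles (log2 ratio -0.08, SE 0.139, adjusted p = 0.819). The longest member, DN3859_c0_g2 of 9074 bases, matched the beta subunit and read 53.2, 59.2 and 60.8 against 48.2, 76.4 and 71.8 FPKM (log2 ratio 0.15, SE 0.189). A further beta match, DN1849_c0_g1, was at 21.2, 22.9 and 30.5 against 13.6, 37.0 and 39.6 FPKM (log2 ratio 0.14, SE 0.417, adjusted p = 0.890). For each of the 3, mature bottle 1 was below every immature bottle while mature bottles 2 and 3 were above every immature bottle, except that the alpha unigene's mature bottle 3 lay within the immature range. The groups therefore overlapped, and the sign of the alpha and of the shorter beta unigene turned when 1 mature bottle was left out. The mitochondrial enoyl-[acyl-carrier-protein] reductase DN4141_c0_g1, of the separate mitochondrial pathway, read 73.1, 64.3 and 67.1 against 71.0, 77.2 and 80.6 FPKM (log2 ratio 0.16, SE 0.0986, adjusted p = 0.473). DN3060_c0_g1 was named fatty acid synthase from a chicken protein, but its Nr match is a polyketide synthase, and it was at 56.1, 43.9 and 61.1 against 46.6, 57.9 and 64.0 FPKM (log2 ratio 0.07, SE 0.176).

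**Figure D2:**
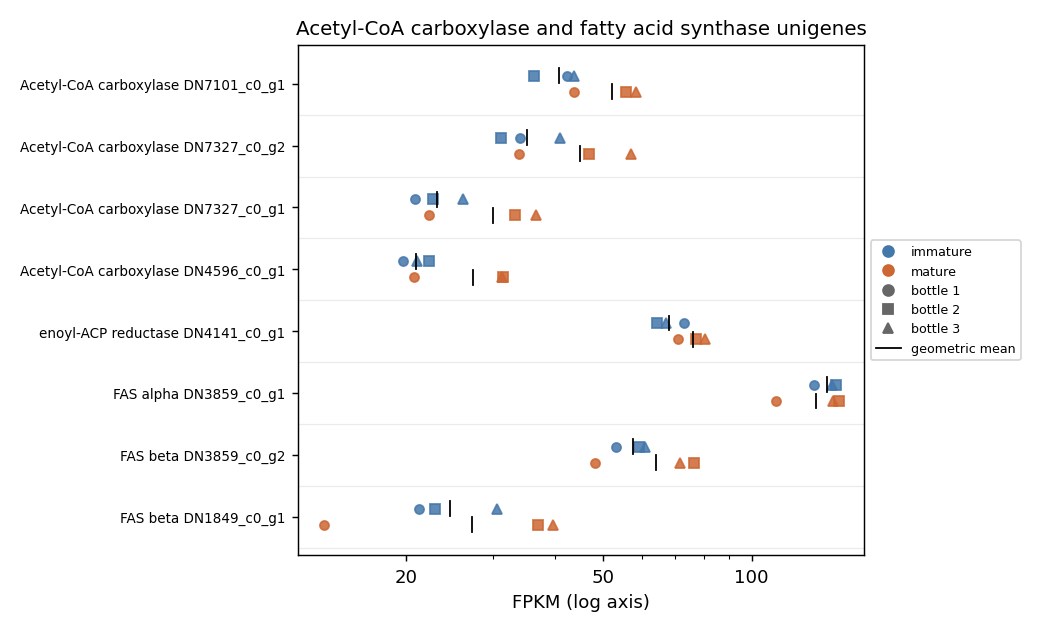
FPKM on a log axis of the 8 synthesis unigenes in each bottle, with immature bottles in blue, mature bottles in orange, the marker shape giving the bottle number and a line at the geometric mean. Mature bottle 1 lies within or below the range of the immature bottles in every row, and for the 4 acetyl-CoA carboxylase unigenes mature bottles 2 and 3 lie above all immature bottles.

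The split of the mature bottles was counted for all unigenes after it was seen. Mature bottle 1 lay inside the immature range with mature bottles 2 and 3 both above it for 8 of 78 members (10.3%) and for 4.67% of all unigenes tested. The mirror image, with mature bottles 2 and 3 both below, held for 8 members (10.3%) and for 8.09% of all. The first 8 comprised 5 of the 8 synthesis unigenes and the pair DN4759_c0_g1 and DN4759_c0_g2 among the desaturases. The last was the acyl-CoA dehydrogenase match DN7848_c0_g1, named after its values were seen. Those 5 included the 4 acetyl-CoA carboxylase unigenes of 1 protein, and the DN4759 pair shared another protein. Unigenes on 1 protein are not independent, so the 8 are not 8 separate cases. The group median of synthesis, as log2 against the mean of the immature bottles, was -0.09, -0.05 and 0.09 in immature bottles 1, 2 and 3, and -0.05, 0.43 and 0.53 in mature bottles 1, 2 and 3. Without mature bottle 1, the median log2 ratio of the 9 unigenes that the words placed in synthesis was 0.48 in place of 0.16.

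Elongation of finished chains runs through a condensing enzyme, a ketoreductase, a dehydratase and an enoyl reductase. By Swissprot protein name alone, a match to each was found. DN9273_c0_g2, matched to an elongation protein of fission yeast, was abundant at 192, 270.1 and 263 FPKM in immature and 209.8, 255 and 233 in mature bottles (log2 ratio -0.04, SE 0.165, adjusted p = 0.918). The others were named after their values were seen. The dehydratase match DN9188_c0_g2 read 28.6, 37.4 and 35.0 against 22.6, 28.9 and 27.6 FPKM (log2 ratio -0.34, SE 0.153, unadjusted p = 0.0678). The ketoreductase match DN8609_c0_g1 and the enoyl reductase match DN7321_c0_g1 had log2 ratios of 0.01 and 0.00. For all 4 the groups overlapped.

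Desaturases held both members that passed the study's thresholds, 1 in each direction. Of 15 members, 2 were higher (13.3%, against 6.09% of all unigenes tested) and 2 lower (13.3%, against 9.33%) at an unadjusted p of at most 0.05. A log2 ratio below 0 was seen for 8 of them (53.3%), against 57.7% of all. The acyl-CoA desaturases all had negative ratios, and those of the Delta(12) desaturases ran both ways.

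Acyl-CoA desaturases place the first double bond. DN6768_c0_g1 was at 23.5, 19.1 and 19.9 FPKM in immature bottles 1, 2 and 3, and at 9.93, 9.69 and 8.44 in mature bottles 1, 2 and 3. Each mature bottle was thus well below each immature bottle, and the mean was 2.23-fold lower (log2 ratio -1.07, SE 0.144, unadjusted p = 2.8e-04, adjusted p = 0.0886). In bulk RNA, fewer hyphae using the gene and less of its RNA per hypha cannot be told apart. The unadjusted p stayed at most 0.05 without any 1 bottle, while the ratio was -0.99, just short of the study's limit, without immature bottle 1. Its neighbours in the assembly, DN6768_c0_g2 and DN6768_c0_g3, matched another protein and were more abundant. DN6768_c0_g2 read 114, 159 and 164 against 57.2, 110.5 and 113 FPKM (log2 ratio -0.68, SE 0.302, adjusted p = 0.350), and DN6768_c0_g3 read 111, 177 and 189 against 62.9, 162 and 130.4 FPKM (log2 ratio -0.49, SE 0.393). In both, mature bottle 1 was the lowest of the 6 and immature bottle 1 the lowest of its group. DN4105_c0_g2, whose Nr match is named a delta-9 CoA desaturase, was at 97.2, 48.2 and 77.4 against 46.9, 71.9 and 66.1 FPKM (log2 ratio -0.23, SE 0.292). Of the 4 acyl-CoA desaturase unigenes, only DN6768_c0_g1 reached an unadjusted p of 0.05.

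Delta(12) desaturases, which make linoleic acid, had ratios of both signs. DN8864_c0_g1 was at 52.9, 32.7 and 38.4 FPKM in immature and 66.3, 64.2 and 70.2 in mature bottles. Every mature bottle was above every immature bottle, 1.62-fold in the mean (log2 ratio 0.71, SE 0.183, unadjusted p = 0.00800, adjusted p = 0.193). DN8649_c0_g1, on the same Nr protein, did not share this and read 30.0, 14.9 and 13.7 against 15.6, 17.0 and 18.4 FPKM (log2 ratio -0.11, SE 0.299). Its immature bottle 1 stood far above the other 5, and without it the log2 ratio was 0.23.

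The most abundant Delta(12) match, DN4759_c0_g1, read 182, 111 and 137 against 133, 194 and 189.9 FPKM (log2 ratio 0.27, SE 0.234, adjusted p = 0.609). On the same protein, the short DN4759_c0_g2, outside the naming rule and called an omega-3 desaturase after a tobacco enzyme, read 79.7, 54.9 and 86.3 against 61.1, 105 and 107 FPKM (log2 ratio 0.29, SE 0.279). In both of these mature bottles 2 and 3 were the highest of all 6. DN6454_c0_g2 had the widest immature spread of the group, 54.1, 158 and 115 FPKM, and mature values of 60.4, 79.9 and 72.7 (log2 ratio -0.49, SE 0.389). DN8567_c0_g1 was at 21.2, 17.1 and 14.5 against 16.6, 10.9 and 10.98 FPKM (log2 ratio -0.43, SE 0.223). Values were nearly the same in all bottles for DN6900_c0_g1, with 57.7, 50.5 and 51.4 against 59.7, 52.7 and 51.5 FPKM (log2 ratio 0.04, SE 0.107). The match to DES8.11, a *Calendula* desaturase, DN7137_c0_g1, read 40.6, 38.3 and 38.6 against 42.7, 38.1 and 43.0 FPKM (log2 ratio 0.07, SE 0.0967).

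The omega-3 desaturase DN3856_c0_g1, matched to an enzyme of *Mortierella alpina*, had the largest ratio of the members past the study's thresholds, from the lowest level among desaturases. It read 1.19, 3.03 and 3.35 FPKM in immature and 6.70, 5.30 and 11.2 in mature bottles. The groups did not overlap, and the mean was 3.06-fold higher (log2 ratio 1.31, SE 0.399, unadjusted p = 0.0163, adjusted p = 0.229). The unigene has 401 bases, and the smallest values above 0 among the 306 unigenes within 10 bases of this length were 0.44 to 0.55 FPKM per library, so the immature values rest on few fragments. Without mature bottle 3 its unadjusted p was 0.0531 and it left the study's thresholds, as it did with 5 added to each FPKM.

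Sphingolipid desaturases act on the long-chain base of sphingolipids and not on fatty acids. The Delta 8 enzyme DN5295_c1_g3 was at 34.4, 36.6 and 36.8 against 28.9, 30.3 and 29.3 FPKM (log2 ratio -0.28, SE 0.0915, unadjusted p = 0.0229, adjusted p = 0.253). This was a small difference between 2 tight groups that did not overlap. The delta(4) enzyme DN4376_c0_g1, named after its values were seen, had a log2 ratio of 0.00 at 94.6, 75.6 and 84.7 against 78.2, 86.8 and 89.5 FPKM.

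**Figure D3:**
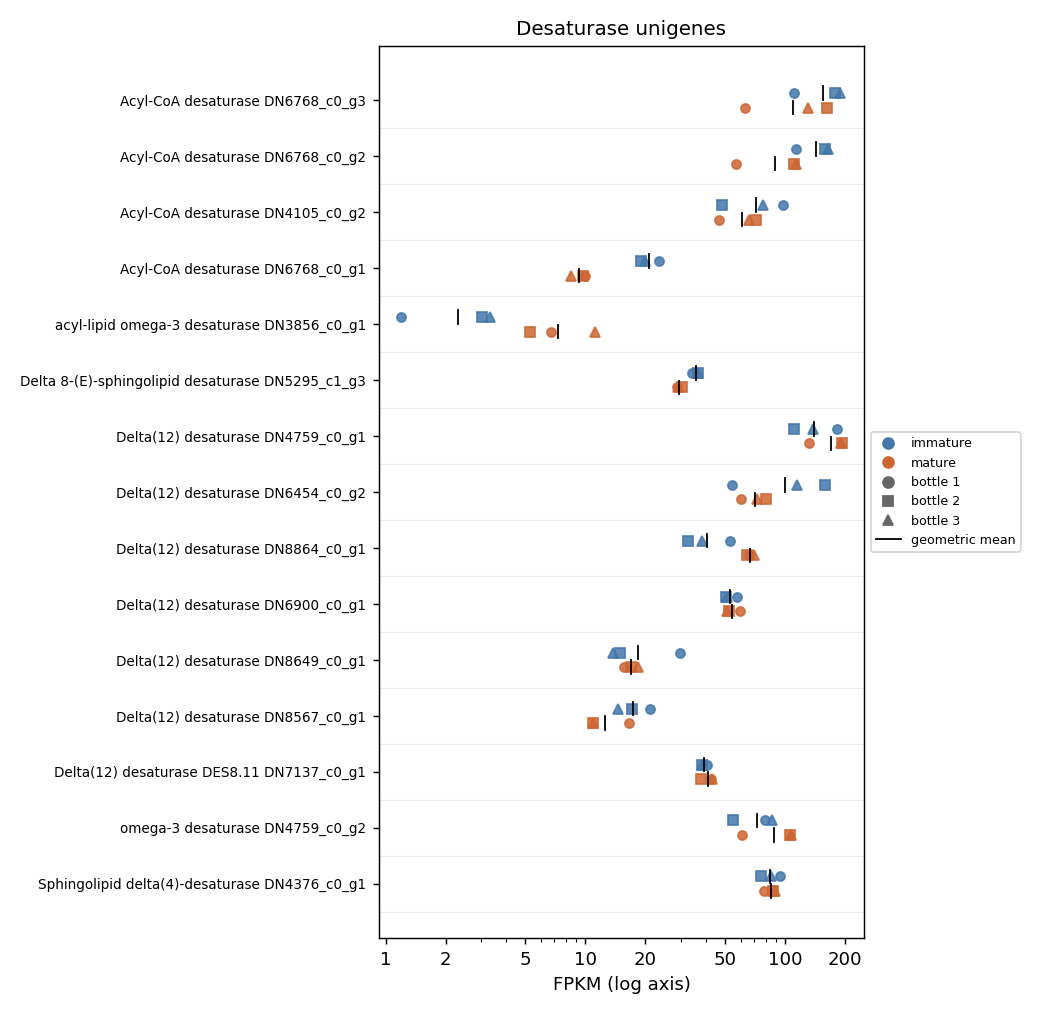
FPKM on a log axis of the 15 desaturase unigenes in each bottle, coloured by stage and shaped by bottle number, with a line at the geometric mean. The acyl-CoA desaturase DN6768_c0_g1 has mature bottles at 8.44 to 9.93, below immature bottles at 19.1 to 23.5, while the omega-3 desaturase DN3856_c0_g1 and the Delta(12) desaturase DN8864_c0_g1 have every mature bottle above every immature bottle.

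Activation and transport unigenes, by name, mostly bind fatty acids to CoA or carry the product. Of 12 members, 3 were higher (25%, against 6.09% of all unigenes tested) and 1 lower (8.33%, against 9.33%) at an unadjusted p of at most 0.05, with a group median of 0.01. Acyl-CoA-binding proteins carry acyl-CoA esters in the cell, and 2 of their 3 unigenes were higher in mature mycelia. DN5788_c0_g1, matched to acyl-CoA-binding domain-containing protein 5 of *Xenopus*, was the most abundant unigene of the group, at 228, 193 and 176 FPKM in immature and 263, 272 and 327 in mature bottles. All mature bottles were above all immature bottles (log2 ratio 0.53, SE 0.145, unadjusted p = 0.0106, adjusted p = 0.204). DN3583_c0_g1, matched to a nematode acyl-CoA-binding protein, read 12.6, 8.29 and 9.01 against 19.95, 14.3 and 18.6 FPKM, again without overlap (log2 ratio 0.77, SE 0.213, unadjusted p = 0.0109, adjusted p = 0.206). Another such unigene, DN8811_c0_g1, read 69.4, 66.1 and 72.0 against 67.3, 65.9 and 68.9 FPKM (log2 ratio -0.04, SE 0.0841).

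Acyl-CoA ligases, which join fatty acids to CoA, had ratios of both signs. DN9015_c0_g2, matched to the putative synthetase YngI of *Bacillus subtilis*, was at 60.3, 53.0 and 49.8 against 40.9, 40.5 and 42.7 FPKM, with every mature bottle lower (log2 ratio -0.38, SE 0.105, unadjusted p = 0.0107, adjusted p = 0.204). DN5578_c0_g1, matched to easD, a ligase of emericellamide synthesis in *Emericella nidulans*, read 58.4, 45.6 and 42.1 against 72.2, 57.1 and 67.3 FPKM (log2 ratio 0.43, SE 0.159, unadjusted p = 0.0356, adjusted p = 0.288). Its groups overlapped, since mature bottle 2 was below immature bottle 1. The other 7 unigenes of this group had log2 ratios of -0.13 to 0.32. Among them was DN4112_c0_g1, named after its values were seen. Its protein name is that of a kinase associated with fatty acyl-CoA synthetase, not of a ligase.

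Beta-oxidation was the largest group, and its lower unigenes included a dienoyl-CoA reductase, an enoyl-CoA isomerase and a racemase. Of 29 members, 19 (65.5%) had a log2 ratio below 0, against 57.7% of all unigenes tested. At an unadjusted p of at most 0.05, 7 were lower (24.1%, against 9.33% of all) and 3 higher (10.3%, against 6.09%). Wholly below the immature bottles lay 10 (34.5%, against 14.2%), and wholly above lay 3 (10.3%, against 8.69%). These 29 include members moved in once their values were known. By words alone, 16 of 26 (61.5%) were below 0, 5 were lower (19.2%) and 3 higher (11.5%) at that p, and 9 lay wholly below (34.6%) and 3 wholly above. The group median by bottle, as log2 against the immature mean, was 0.02, -0.01 and 0 in immature and -0.11, -0.22 and -0.21 in mature bottles. For all unigenes tested it was 0.04, -0.03 and 0.00 in immature and -0.02, -0.09 and -0.08 in mature bottles. The difference of the group from all unigenes was not tested. Acyl-coenzyme A oxidases and peroxisomal hydratase-dehydrogenase-epimerases act in this pathway, but their spelling kept them out of the group. Named after their values were seen, the oxidases DN9145_c1_g1, DN8789_c0_g1 and DN7697_c0_g2 had log2 ratios of -0.22, -0.12 and 0.03. The epimerases DN7926_c0_g1 and DN4068_c0_g1 had -0.13 and 0.07. For all of these the stages overlapped.

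The beta-oxidation members with the lowest unadjusted p were a dienoyl-CoA reductase and an enoyl-CoA isomerase, which act on unsaturated chains. DN9346_c0_g1, matched to SPS19, the peroxisomal 2,4-dienoyl-CoA reductase of budding yeast, was at 174, 174 and 171 FPKM in immature and 121, 110.5 and 111 in mature bottles. The 3 immature bottles were nearly identical and every mature bottle was lower (log2 ratio -0.59, SE 0.0854, unadjusted p = 4.2e-04, adjusted p = 0.0915). The enoyl-CoA delta isomerase 2 match DN5637_c0_g1, which shifts double bonds into the position that beta-oxidation can use, read 43.4, 40.7 and 35.8 against 18.0, 21.7 and 21.6 FPKM. Its groups stood far apart, with a mean 1.96-fold lower (log2 ratio -0.94, SE 0.1301, unadjusted p = 3.4e-04, adjusted p = 0.0913). Without immature bottle 3 its log2 ratio was -1.01 and it passed the study's thresholds. Fitted among unigenes of at least 500 bases, the adjusted p was 0.0498 for DN9346_c0_g1, 0.0344 for DN5637_c0_g1 and 0.0298 for the acyl-CoA desaturase DN6768_c0_g1.

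A dienoyl-CoA isomerase match, DN5043_c0_g1, was named after its values were seen and is 341 bases long. It read 33.2, 34.9 and 40.6 against 23.4, 31.7 and 21.1 FPKM (log2 ratio -0.51, SE 0.177, unadjusted p = 0.0276). DN3682_c0_g1, also outside the naming rule and on the same protein, had 16.0, 13.8 and 8.50 against 11.4, 8.23 and 12.4 FPKM (log2 ratio -0.21). The peroxisomal enoyl-CoA delta isomerase 1 match DN6444_c0_g1, likewise outside it, had a log2 ratio of -0.22 with overlapping groups. The last pair did not reach an unadjusted p of 0.05.

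Alpha-methylacyl-CoA racemase prepares branched chains for oxidation, and its 2 unigenes, on 1 protein, included the most abundant member. DN8265_c0_g2 was at 314, 596 and 733 FPKM in immature and 401, 244 and 223 in mature bottles (log2 ratio -0.88, SE 0.378, unadjusted p = 0.0578). DN8265_c0_g3 read 129.9, 207 and 269 against 144, 87.4 and 74.0 FPKM (log2 ratio -0.98, SE 0.348, unadjusted p = 0.0305, adjusted p = 0.275). In both, immature bottle 1 was low and mature bottle 1 high for its group, so the groups overlapped. Both passed the study's thresholds without immature bottle 1 (log2 ratios -1.24 and -1.26) and without mature bottle 1 (-1.14 and -1.26).

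Acyl-CoA dehydrogenases, which open each round of beta-oxidation in mitochondria, had ratios of both signs. DN5773_c0_g1, matched to apdG of *Emericella nidulans*, a dehydrogenase of a polyketide cluster, was at 85.8, 88.9 and 80.3 against 64.8, 65.4 and 72.6 FPKM with no overlap (log2 ratio -0.33, SE 0.0943, unadjusted p = 0.0131, adjusted p = 0.215). Another apdG match, DN8974_c0_g2, named after its values were seen, read 110.2, 63.6 and 59.5 against 50.8, 45.3 and 45.6 FPKM (log2 ratio -0.65, SE 0.243, unadjusted p = 0.0359), and its immature bottle 1 stood apart. Higher in mature mycelia was DN5482_c0_g1, matched to YngJ of *Bacillus subtilis*, at 20.8, 14.8 and 19.8 against 23.1, 30.1 and 28.3 FPKM (log2 ratio 0.54, SE 0.177, unadjusted p = 0.0220, adjusted p = 0.250). On the same protein, the short DN2427_c0_g1, also named after its values were seen, read 107, 67.5 and 117 against 144, 134 and 139 FPKM (log2 ratio 0.55, unadjusted p = 0.0430). Neither pair of groups overlapped.

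A trio of unigenes shared 1 Nr protein, and 2 of them were named after IBR3, a protein of the response to indole-butyric acid in *Arabidopsis*. DN7108_c0_g3, whose Swissprot match is human acyl-CoA dehydrogenase family member 10, was at 37.8, 37.1 and 43.1 against 56.4, 48.0 and 55.6 FPKM (log2 ratio 0.43, SE 0.114, unadjusted p = 0.00891, adjusted p = 0.198). DN7108_c0_g2, the most abundant dehydrogenase, read 222, 216 and 234 against 187, 204 and 199.9 FPKM (log2 ratio -0.19, SE 0.0909, adjusted p = 0.381). DN7108_c0_g1, named after its values were seen, had a log2 ratio of 0.20. The first lay wholly above and the second wholly below the immature bottles, although all 3 matched the same protein.

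Thiolases, which close each round, had small ratios. All 4, and DN651_c0_g1 below, fall outside the naming rule. DN10567_c0_g1, the most abundant, was at 158, 126 and 137 against 125, 147 and 149.7 FPKM (log2 ratio 0.00, SE 0.129). DN9011_c0_g1 read 59.1, 67.8 and 72.6 against 58.0, 46.6 and 49.9 FPKM (log2 ratio -0.36, SE 0.129, unadjusted p = 0.0298, adjusted p = 0.273). The remaining thiolases DN3119_c0_g1 and DN2782_c0_g1, on 1 protein, had log2 ratios of 0.13 and 0.21 and overlapping groups. The acyl-CoA dehydrogenase match DN651_c0_g1, of 202 bases, was listed at 0 in 5 libraries and at 50.02 FPKM in mature bottle 2. Its fitted log2 ratio of 1.89, the point farthest to the right in the plot by enzyme function, depends on the value added before taking logs.

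**Figure D4:**
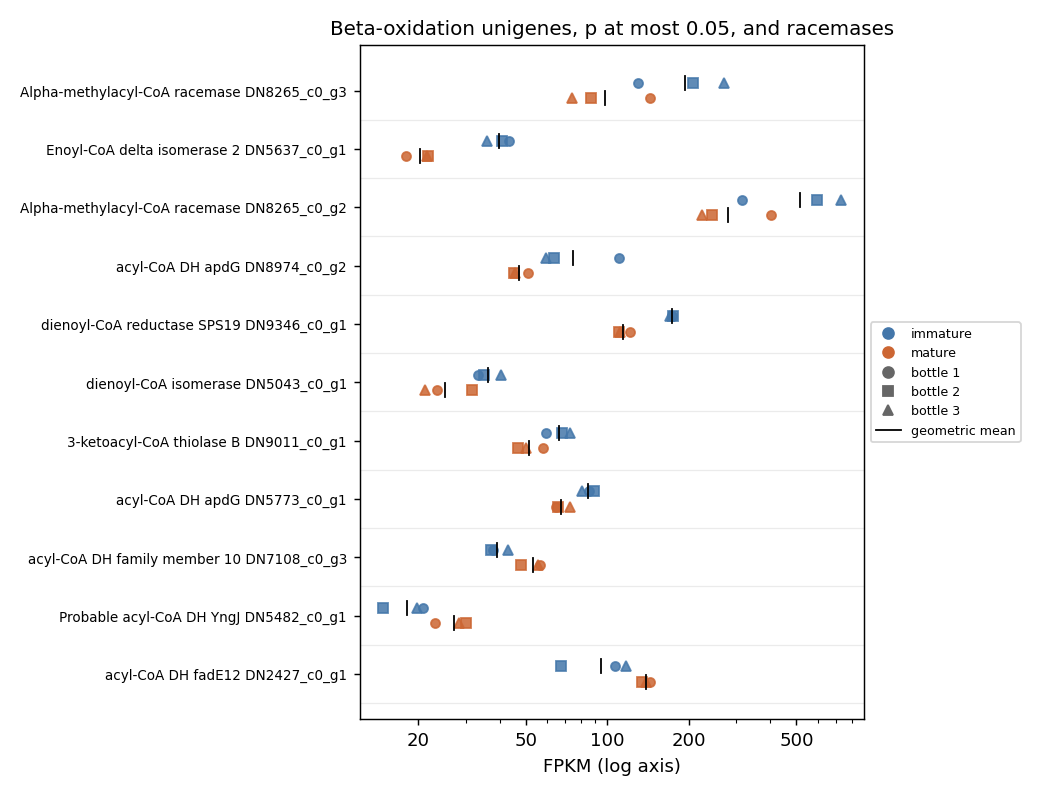
FPKM on a log axis, in each bottle, of the beta-oxidation unigenes with an unadjusted p of at most 0.05 and of both racemase unigenes, ordered by log2 ratio and marked by stage and bottle number, with a line at the geometric mean. The dienoyl-CoA reductase DN9346_c0_g1 and the isomerase DN5637_c0_g1 have tight groups that stand apart, while the racemases have mature bottle 1 among the immature values.

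Among the 10 other members only DN6632_c0_g1 reached an unadjusted p of 0.05. It matched a trans-acting enoyl reductase of *Mycobacterium tuberculosis* and read 155, 182 and 179 against 141, 120.3 and 125 FPKM, with every mature bottle lower (log2 ratio -0.41, SE 0.113, unadjusted p = 0.0102, adjusted p = 0.203). Linoleate 10R-lipoxygenases oxidise linoleic acid to signalling lipids. The most abundant match, DN8805_c0_g1, was at 91.3, 69.8 and 74.6 against 67.1, 85.9 and 82.1 FPKM (log2 ratio -0.00, SE 0.150). The other lipoxygenase matches, DN4157_c0_g2, DN7047_c0_g1 and DN7047_c0_g2, had log2 ratios of 0.08, 0.03 and -0.56 and overlapping groups. The fatty-acid amide hydrolase matches DN7833_c0_g1 and DN8385_c0_g4 had log2 ratios of -0.03 and -0.62, and the fatty acid hydroxylase SCS7 match DN4511_c0_g1, which acts on ceramides in budding yeast, had 0.15. Apart from DN6632_c0_g1, the members in this paragraph fall outside the naming rule.

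Genes around the pathway were taken from 5 lists of words in protein names, without the members, and 0 of their unigenes had an adjusted p under 0.05. Their counts at an unadjusted p of at most 0.05 stand beside 6.09% higher and 9.33% lower among all unigenes tested, whose median log2 ratio was -0.07, and no list was tested against these. Names with carnitine, acyl-coenzyme A or 3-oxoacyl, the last from acyl-carrier-protein reductases (21 unigenes, median log2 ratio -0.22), had 0 higher and 2 lower (9.52%). The lower ones were carnitine O-acetyltransferase DN8680_c0_g1, 63.7 ± 4.51 FPKM in immature and 47.2 ± 8.80 in mature mycelia (SD, n = 3; log2 ratio -0.44), and carnitine O-palmitoyltransferase DN2767_c0_g1, 29.8 ± 4.84 and 22.1 ± 2.28 FPKM (log2 ratio -0.41). Both act in carrying acyl groups into mitochondria. In this list 1 unigene lay wholly above the immature bottles (4.76%, against 8.69% of all) and 2 wholly below (9.52%, against 14.2%). The one above was the 3-oxoacyl reductase match DN7851_c0_g1, at 56.6 ± 3.69 and 71.2 ± 11.2 FPKM (log2 ratio 0.32, unadjusted p = 0.0604).

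The list for acetyl-CoA supply and the glyoxylate cycle (21 unigenes, median 0.19) had 7 higher (33.3%) and 4 lower (19%), but its words also caught enzymes of amino acid synthesis such as 2-isopropylmalate synthase DN7610_c0_g1 (log2 ratio 0.73). Without them and without names with methylcitrate or methylisocitrate, 11 unigenes were left with a median of 0.08, 1 higher (9.09%) and 3 lower (27.3%). Dropped in this way was 2-methylcitrate synthase DN7422_c0_g1, lower at 141 ± 3.68 and 104 ± 8.94 FPKM (SD, n = 3; log2 ratio -0.44, unadjusted p = 0.00397). The methylisocitrate lyase matches DN5278_c0_g1 and DN5278_c0_g2, also dropped and named after their values were seen, had log2 ratios of -0.05 and -0.00. The acetyl-CoA hydrolase match DN8148_c0_g3, which by its name splits acetyl-CoA, was at 128, 113 and 93.9 FPKM in immature and 48.2, 36.6 and 39.5 in mature bottles (log2 ratio -1.41, SE 0.161, unadjusted p = 1.2e-04, adjusted p = 0.0795). Its mature bottles were all far below its immature bottles.

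Names with lipase but not phospholipase (40 unigenes, median -0.11) had 1 higher (2.5%) and 5 lower (12.5%). Lipases release fatty acids from lipids. This list mixed names of secreted lipases with names such as hormone-sensitive lipase, so it does not stand for stored fat alone. DN5230_c0_g2, matched to Lipase 5, was at 116, 69.6 and 51.2 against 16.9, 25.8 and 22.7 FPKM (log2 ratio -1.75, SE 0.322, adjusted p = 0.133), and DN5230_c0_g4, of 387 bases and matched to Lipase 1, had a log2 ratio of -1.78 (SE 0.304, adjusted p = 0.1199). Neither overlapped between stages. Glycerolipid assembly (16 unigenes, median 0.14) had 1 higher (6.25%) and 0 lower. The higher one was the diacylglycerol acyltransferase match DN217_c0_g1, 50.7 ± 4.39 and 64.7 ± 8.57 FPKM (SD, n = 3; log2 ratio 0.34). Peroxisomal names (33 unigenes, median -0.09) had 1 higher (3.03%) and 5 lower (15.2%), among the latter POX18, a peroxisomal protein that yeast makes on oleate, DN3747_c0_g1 at 258 ± 1.42 and 187 ± 15.9 FPKM (log2 ratio -0.47). The peroxisomal acetate/butyrate-CoA ligase match DN7514_c0_g1 was at 53.0, 73.6 and 65.6 against 42.0, 22.6 and 23.4 FPKM (log2 ratio -1.15, SE 0.266, adjusted p = 0.177).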

How the data were processed

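RNA of mycelia from 6 bottles was sequenced by the authors, who trimmed reads with cutadapt, assembled them with Trinity and TGICL 2.1, kept the longest isoform per subcomponent as a unigene, and estimated FPKM with RSEM. The deposited FPKM values, not scaled to a common sum, were used as log2(FPKM + 1). The GEO record has 1 sample per stage, and the 6 columns were assigned to bottles by name; 0 columns of other samples were used. Mature and immature bottles were compared with limma 3.58.1 in R 4.3.3 (trend=TRUE, two-sided, no covariates), with Benjamini-Hochberg adjustment over the 16496 unigenes with a mean FPKM above 1, in place of the authors' count method. The fit was tested on simulated data. Members and word lists were chosen with earlier results of these data known. Named were members past a threshold, the 4 with the lowest p and the 2 with the highest level per role, all synthases, carboxylases, acyl-CoA and Delta(12) desaturases, members of at least 500 bases whose mature bottles spanned more than 4-fold, and up to 3 unigenes per list; others are marked. Alternatives were other pseudocounts, filters, scalings and priors, a replicate block, a length limit of 500 bases, 1 value per Nr protein and leaving out each bottle. Regrouping by function, the length limit with a bottle left out and the narrowed acetyl-CoA list were added after seeing the data. Plots were made with matplotlib 3.10.9. Reads, RT-qPCR values and sequences were not used here.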

Additional observations from a re-analysis of the deposited data

How the results depend on the processing

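FPKM without read counts, 3 bottles per stage and short unigenes limit the precision of these values. The acyl-CoA desaturase and the omega-3 desaturase both left the study's thresholds with 5 added to each FPKM, which gave 0 higher and 0 lower members. Quantile normalization gave 0 lower members, and unigenes of at least 500 bases gave 0 higher ones and 3 at an adjusted p under 0.05. At an adjusted p under 0.05, leaving out each bottle in turn gave 0 members in every fit of all lengths, and 0 to 3 with the length limit. At all lengths without 1 bottle, the study's thresholds gave 0 to 1 higher and 1 to 3 lower members. An unadjusted p of at most 0.05 then gave 4 to 14 higher and 6 to 15 lower. For the groups sorted by words, the median log2 ratio then ran from 0.121 to 0.478 for synthesis, -0.2 to 0.0437 for elongation, -0.173 to 0.0814 for desaturation, -0.055 to 0.0561 for activation and transport, -0.182 to -0.13 for beta-oxidation and -0.222 to -0.0175 for the rest. The beta-oxidation median was -0.119 after quantile normalization, where that of all unigenes tested was -0.0036 in place of -0.0654. With each Nr protein counted once, the beta-oxidation median was -0.234. Of 589 values of 37 named members under alternatives, 11 changed sign. For DN8811_c0_g1 this was 0.0046 after quantile normalization. The others changed sign without 1 bottle, and over these fits ran from -0.118 to 0.619 for DN1849_c0_g1, -0.0708 to 0.192 for DN3060_c0_g1, -0.153 to 0.0576 for DN3859_c0_g1, -0.0265 to 0.096 for DN6900_c0_g1, -0.3045 to 0.231 for DN8649_c0_g1 and -0.1997 to 0.0437 for DN9273_c0_g2. The cause of these shifts was not tested. Deviations from stage means gave r of -0.089, -0.043 and -0.0097 for bottles with the same number, and -0.053 to 0.087 for different numbers. Such deviations cancel out within each stage, so these r cannot show whether the numbers pair the samples. The stages were sampled from different bottles, and the main fit used no pairing. A replicate block on the bottle numbers left 1 higher and 1 lower member by the study's thresholds and 0 at an adjusted p under 0.05.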

Other observations

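Among the peroxisomal names, the catalase match DN8125_c1_g1, named after its values were seen, an enzyme that breaks down the hydrogen peroxide of peroxisomal oxidation, read 1844, 2043 and 1813 FPKM in immature and 1265, 1441 and 1475 in mature bottles, without overlap (log2 ratio -0.45, SE 0.159, unadjusted p = 0.0304, adjusted p = 0.275). The lipase match DN6198_c0_g1, caught by the lists for lipid release and for glycerolipid assembly and named after its values were seen, had 222, 21.0 and 68.6 FPKM in immature and 9.99, 69.1 and 20.9 in mature bottles. Its bottles differed widely within each stage, and the adjusted p was 0.531.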
